A study of Rattus norvegicus with 12 samples.

Results

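MicroRNA precursors were followed here in isolated mitochondria and whole muscle of the rat. The members are 114 of the 420 rows of the gene table that carry a microRNA gene name, and the table holds 30560 genes in all. A row was taken when its raw counts summed to 20 or more over all 12 libraries, and 4 rows with a known link to muscle (Mir1b, Mir133b, Mir22 and Mir146a) were kept apart. Because the summed count chose the members, their levels are descriptions. At the edge of the rule, Mir103a1, Mir126a and Mir181a2 stand just inside with 20 counts, as 11 members do in all, and Mir142, Mir184 and Mir295-2 stand just outside with 19, as 8 rows do. The 3 inside had 15, 17 and 4 counts in mitochondria and 5, 3 and 16 in muscle, and the 3 outside had 15, 19 and 19 in mitochondria and 4, 0 and 0 in muscle.

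The 12 libraries came from gastrocnemius, a muscle of the calf, whose inner red portion has many oxidative fibres, in 6 male wild-type Wistar Kyoto rats aged 9 weeks that received no treatment. The isolated mitochondria (6 libraries, 10 ng of total RNA each) were pulled from fresh tissue by immunoprecipitation and then exposed to RNase A and proteinase K, and the whole muscle (6 libraries, 50 ng each) was a frozen piece of the same muscle. Ribosomal RNA was depleted from both. The labels tie each mitochondria library to the muscle library of the same animal.

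MicroRNAs are short RNAs that lower the stability and translation of messenger RNAs. They are cut from long primary transcripts in the nucleus by the Microprocessor (Drosha with Dgcr8), exported as hairpins and cut again in the cytoplasm by Dicer, after which an Argonaute protein holds one strand and pairs its seed with targets. Several microRNAs have been reported inside mitochondria in earlier studies, and skeletal muscle is known for a set of its own, among them miR-133a, miR-206 and miR-208b. A count on a microRNA row of a total RNA table is a read over the precursor's gene. It can come from the primary transcript, the hairpin or a host transcript, and the table does not tell these apart or measure the mature strand.

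The mature products below are shown for the families with several members and for single members that the results turn on, and the seed shows which rows belong together. Of the 114 members, 93 matched a RefSeq microRNA by symbol (assembly GRCr8), with hairpins of 67 to 141 bases (median 95) and a GC content of 32.3% to 81.3% (median 52.3%). Capitals mark the seed, bases 2 to 8 from the 5′ end. The 6 matched let-7 members have the seed GAGGUAG in common.
rno-let-7a-5p: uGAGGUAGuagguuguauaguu
rno-let-7c-5p: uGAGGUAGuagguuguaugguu
rno-let-7d-5p: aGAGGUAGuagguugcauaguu
rno-let-7g-5p: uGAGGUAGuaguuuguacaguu
rno-let-7i-5p: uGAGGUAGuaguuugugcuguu
Mir30a, Mir30c1 and Mir30c2 have the seed GUAAACA, and both Mir30c genes give the same 5p strand.
rno-miR-30a-5p: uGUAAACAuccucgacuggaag
rno-miR-30c-5p: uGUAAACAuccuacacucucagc
The muscle-enriched Mir206 and Mir208b are followed by the 2 members called lower in mitochondria that belong to neither of these families and matched RefSeq, and by 2 members without a muscle count.
rno-miR-206-3p: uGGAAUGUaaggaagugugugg
rno-miR-208b-3p: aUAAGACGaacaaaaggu
rno-miR-568: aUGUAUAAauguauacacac
rno-miR-6326: cUGGUCUGuaaagggacacagca
rno-miR-129-5p: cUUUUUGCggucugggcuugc
rno-miR-3575: aCUGCUGGguaagacgag

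The mitochondria libraries held 720111 to 1785865 counts, of which 573903 to 1055433 lay on nuclear genes, and the muscle libraries held 24309444 to 32055355. The mitochondrial genome took 12.9% to 51.5% of counts in mitochondria and 26.4% to 35.9% in muscle, so levels are given as CPM with only the counts on nuclear genes in the total (nuclear CPM). A total of 3 counts in 1 library is worth 2.84 to 5.23 nuclear CPM in mitochondria and 0.136 to 0.193 in muscle, which is the precision available for rows this small. All 7 skeletal muscle markers with a row were lower in mitochondria (edgeR's quasi-likelihood test with Benjamini-Hochberg adjustment), with means of 52.8 to 2571 nuclear CPM against 3328 to 111385 in muscle. Of 10 markers of other cell types, none was at 0 in either group. Ptprc and Cd68 (leukocytes) and Adipoq (adipocytes) were higher in mitochondria and the other 7 lower, although Pdgfra, among the 7, averaged 102 nuclear CPM in mitochondria against 38.6 in muscle. The 1115 olfactory receptor genes, which muscle is not known to use, summed to 13825 ± 500 nuclear CPM in mitochondria and 11.2 ± 1.46 in muscle (SD, n = 6 each). Their part in the values of the microRNA rows was not tested. In libraries of bulk material, fewer cells of a type and less RNA per cell cannot be told apart.

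Summed over the 114 members, microRNA precursor rows took 370 ± 26.7 nuclear CPM in mitochondria (range 327 to 402) and 32.8 ± 3.57 in muscle (26.6 to 37.0; SD, n = 6 each). This rests on 1844 counts in mitochondria and 3803 in muscle, a ratio of 11.3 per nuclear count. The groups did not overlap. The members' own ratios had a median of 23.9, with rows without a muscle count set at their lower bound, against a median of 46.5 over the 29299 genes of the table for which a ratio or a bound could be had. The 302 microRNA rows below the sum of 20 had a pooled ratio of 122, on 1903 counts in mitochondria and 363 in muscle. Their low sum caps the muscle counts, in libraries that are far deeper, so the cut itself favours a high ratio. The 49 C/D box snoRNA genes had a pooled ratio of 8.20, and the 4 muscle-linked rows one of 0.504. The 4 were not alike: Mir1b, Mir133b and Mir22 had ratios of 0.322 to 0.358, and Mir146a had 20.5.

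The counts were spread in a different way in the 2 kinds of library. The 10 rows with the most counts in mitochondria held 16.9% of the members' mitochondria counts, and the 10 with the most counts in muscle held 47.8% of the muscle counts. The mean level per member lay between 0.388 and 8.91 nuclear CPM in mitochondria, with a median of 3.21 and quartiles of 2.12 and 4.18, whereas in muscle it lay between 0 and 3.95, with a median of 0.128 and quartiles of 0.0378 and 0.267. Among these chosen rows, most stood within a narrow band in mitochondria, and in muscle a few stood far above the others. The rule on the summed count shapes both spreads, since a row with few muscle counts needed mitochondria counts to enter. The members' mean levels in mitochondria and muscle had a Spearman's rho of -0.603, against 0.285 over all 420 microRNA rows. Among the 93 members with a RefSeq hairpin, levels per 100 bases of hairpin reached 4.12 nuclear CPM in muscle for Mir568, followed by Mir30c2 with 1.44, and 9.19 in mitochondria for Mir129-2, followed by Mir99b with 7.50. The order of the members was more alike between muscle libraries (Spearman's rho of counts 0.628 to 0.765 over the pairs of libraries, across 114 rows) than between mitochondria libraries (0.00242 to 0.353), where a row holds only 2 to 45 counts over all 6 libraries. These coefficients are across rows, which are not replicates.

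**Figure D1:**
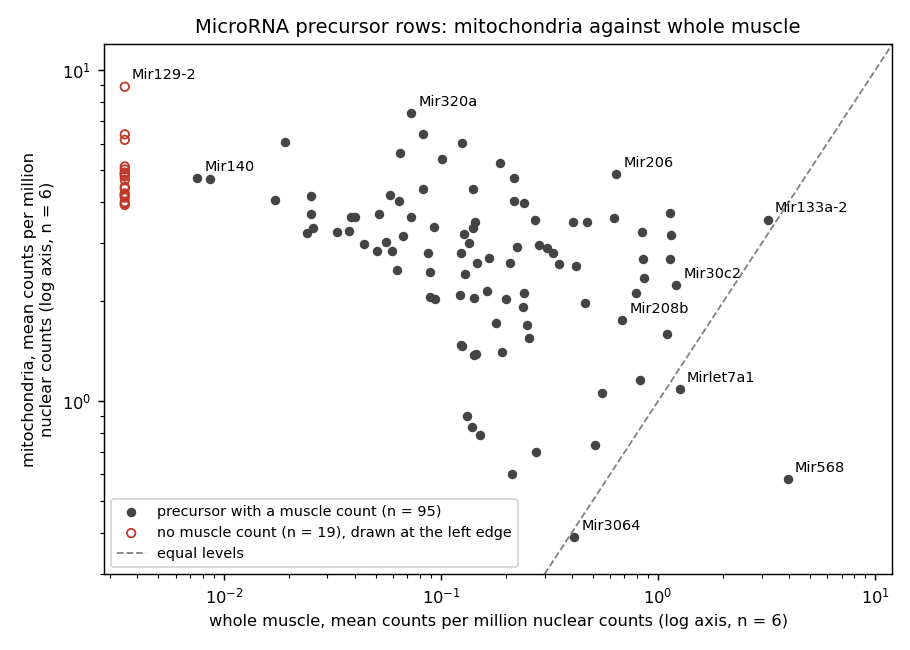
Mean level of each of the 114 precursor rows in mitochondria (vertical) and whole muscle (horizontal), in nuclear CPM on log axes, n = 6 libraries each; open circles at the left edge are the 19 rows with no muscle count, and the dashed line marks equal levels. All but 3 rows, Mir568, Mirlet7a1 and Mir3064, lie above the line; the empty lower left corner follows from the rule that the counts sum to 20 or more.

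The mean nuclear CPM was higher in mitochondria for 111 of the 114 members. For 56 members every mitochondria library lay above every muscle library, for 1 (Mir568) every muscle library lay above, and 57 overlapped. Over the 29900 genes with a count, mitochondria lay wholly above muscle for 71.4% and muscle wholly above mitochondria for 6.1%, and over the 25739 genes with a sum of at least 20 for 79.7% and 7.07%. The 56 of 114 members stand below both shares for mitochondria, and whether the number of counts per row has a part in this was not tested.

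In the edgeR fit over the whole table, with trimmed-mean (TMM) scaling, 41 members passed the filter on low counts: 30 were called higher in mitochondria, 4 lower, and 7 did not pass the threshold of 0.05. Of the 24679 genes tested, 63.0% were called higher and 30.3% lower. A small row passed that filter mainly through the mitochondria libraries, so the split of these 41 supports nothing about the members. Without the filter all 114 were tested, with 72 higher, 9 lower and 33 not passed, against 66.6% higher and 25.7% lower of 29900 genes. With other settings the counts were 33 higher and 4 lower of 41 with RLE size factors (background 66.5% and 26.6%), 37 and 1 of 41 with total counts (84.3% and 9.03%), 36 and 1 of 40 with nuclear counts (85.6% and 9.29%), and 77 and 3 of 114 with DESeq2 (68.7% and 21.8%). With the animal as a block they were 30 and 4 of 41 (62.9% and 30.1%). The median gene itself had a log2 fold change of 2.51 under TMM, of 4.61 when libraries were scaled to total counts and of 4.67 when scaled to nuclear counts. Relative to it, 15 of the 41 tested members lay below the median gene, and 77 of 114 without the filter, where the members' median was 2.27 and that of all genes 3.56.

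Mir568 stands apart from the other members, as the only one with all muscle libraries above all mitochondria libraries. It had 0.58 ± 0.636 nuclear CPM in mitochondria (lowest 0, median 0.577, highest 1.17) and 3.95 ± 1.39 in muscle (lowest 2.35, median 3.84, highest 6.48; SD, n = 6 each), from 3 and 448 counts. Its level was lower in mitochondria in all 6 animals. The log2 fold change was -4.75 ± 0.51 (SE, edgeR adjusted p = 3.80e-10). It stayed below 0 and past the threshold under each scaling tried. It was -2.78 with total counts and -2.68 with nuclear counts (edgeR adjusted p = 0.000111 and 0.000489). The muscle counts of Mir568 let it enter by the sum and pass the filter, so these values are a description. Mir568 lies within Zbtb20, a zinc finger transcription factor gene, although the strand relation is not listed. Zbtb20 averaged 90.7 ± 9.71 nuclear CPM in mitochondria and 140 ± 17.6 in muscle (SD, n = 6 each), a ratio of 0.649 against 0.156 (95% counting interval 0.0320 to 0.458) for Mir568. The interval of Zbtb20, 0.589 to 0.712, does not touch that of Mir568, but both cover counting error only and leave out the spread between animals.

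The muscle-enriched microRNAs were next. Mir133a-2, a precursor of miR-133a, which acts in the growth and differentiation of myoblasts, had 3.54 ± 2.07 nuclear CPM in mitochondria (lowest 0.947, median 4.09, highest 5.77) and 3.20 ± 1.00 in muscle (lowest 1.34, median 3.33, highest 4.08; SD, n = 6 each), from 17 and 366 counts. The groups overlapped and its mean levels nearly coincide. It was called lower with TMM, at a log2 fold change of -2.04 ± 0.39 (SE, edgeR adjusted p = 1.42e-05), but the sign turned with total or nuclear counts, at 0.03 and 0.10. Mir206, a microRNA of skeletal muscle that promotes myoblast differentiation, had 4.86 ± 2.44 nuclear CPM in mitochondria (lowest 1.74, median 5.25, highest 8.08) and 0.640 ± 0.391 in muscle (lowest 0.361, median 0.445, highest 1.34). All mitochondria libraries lay above all muscle libraries. With TMM its log2 fold change of 0.79 ± 0.43 did not pass (SE, edgeR adjusted p = 0.0807), while with total counts it was 2.85 (edgeR adjusted p = 4.75e-08). Mir206 passed the filter mainly through its mitochondria libraries, so these values are a description. Mir208b, which lies inside the slow myosin gene Myh7, had 1.75 ± 0.693 nuclear CPM in mitochondria (lowest 1.15, median 1.52, highest 2.84) and 0.684 ± 0.343 in muscle (lowest 0.362, median 0.561, highest 1.15). It did not pass the filter. Together the 3 rows summed to 10.1 ± 2.55 nuclear CPM in mitochondria and 4.52 ± 0.971 in muscle (SD, n = 6 each). Their pooled ratio was 2.28, against 11.3 for all members. That 11.3 includes rows with few or no muscle counts, which entered mainly through mitochondria counts. A low ratio was not particular to the muscle-enriched rows. The 27 microRNA rows with 40 or more muscle counts averaged 2.44 nuclear CPM in mitochondria and 1.87 in muscle.

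**Figure D2:**
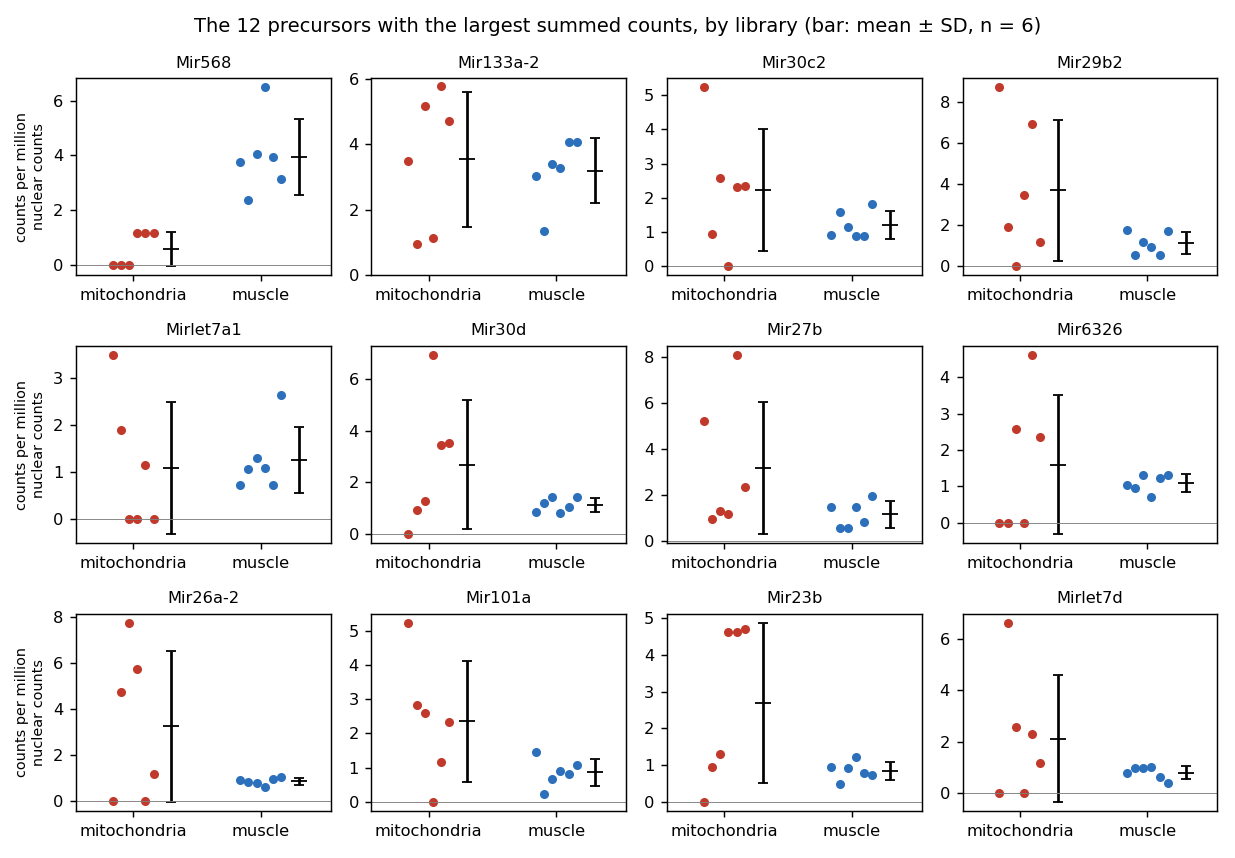
Level of the 12 precursors with the largest summed counts in each library, in nuclear CPM; red points are the 6 mitochondria libraries, blue points the 6 muscle libraries, and the bars give mean ± SD. Mir568 has all mitochondria points between 0 and 1.17 and all muscle points at 2.35 or above; for the other 11 the groups overlap.

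The let-7 family, known for its rise as cells differentiate and for its repression of growth genes, has 7 members here, of which Mirlet7b had no match in RefSeq. Their sum was 17.8 ± 6.10 nuclear CPM in mitochondria (range 11.5 to 28.4) and 4.03 ± 0.827 in muscle (2.64 to 4.81; SD, n = 6 each), a pooled ratio of 4.62. The groups of sums did not overlap, while each single member did. Mirlet7a1 had 1.09 ± 1.41 nuclear CPM in mitochondria (lowest 0, median 0.577, highest 3.48) and 1.26 ± 0.712 in muscle (lowest 0.723, median 1.07, highest 2.63), the lowest ratio of the family at 0.819 (95% counting interval 0.262 to 1.96). It did not pass the filter, and was called lower without it, at -2.45 ± 0.60 (SE, edgeR adjusted p = 0.000300). Mirlet7d, which lies within 10 kb of Mirlet7a1 on chromosome 17, had 2.12 ± 2.47 nuclear CPM in mitochondria and 0.791 ± 0.244 in muscle (SD, n = 6 each). Mirlet7i, the one let-7 member that passed the filter, had 3.56 ± 2.64 nuclear CPM in mitochondria and 0.624 ± 0.395 in muscle, with a log2 fold change of 0.29 ± 0.56 (SE, edgeR adjusted p = 0.622). The remaining 4 had ratios of 6.30 to 11.3.

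The miR-30 family is abundant in striated muscle and has 5 members here, Mir30a, Mir30b, Mir30c1, Mir30c2 and Mir30d. They summed to 10.8 ± 3.18 nuclear CPM in mitochondria (range 7.58 to 16.2) and 3.68 ± 0.686 in muscle (2.95 to 4.59; SD, n = 6 each), a pooled ratio of 2.87. Mir30c2 had 2.24 ± 1.77 nuclear CPM in mitochondria (lowest 0, median 2.33, highest 5.23) and 1.21 ± 0.408 in muscle (lowest 0.878, median 1.03, highest 1.83). It was called lower with TMM, at -1.39 ± 0.46 (SE, edgeR adjusted p = 0.00552), but not with DESeq2 (adjusted p = 0.0745), and its sign turned with total or nuclear counts, at 0.68 and 0.73. Mir30d had 2.69 ± 2.51 nuclear CPM in mitochondria and 1.13 ± 0.271 in muscle, with a log2 fold change of -0.84 ± 0.42 (SE, edgeR adjusted p = 0.0606), which passed at -1.40 without mitochondria replicate 4 (edgeR adjusted p = 0.00806) and turned to 1.18 with total counts. Mir30c1, with the same 5p strand as Mir30c2, separated the groups, with mitochondria above, at 2.81 ± 1.20 nuclear CPM in mitochondria and 0.327 ± 0.255 in muscle, and did not pass (log2 fold change 0.88 ± 0.57, SE, edgeR adjusted p = 0.142).

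Among the other members with many counts, Mir29b2 belongs to the miR-29 family, known for repressing collagen genes. It had 3.69 ± 3.43 nuclear CPM in mitochondria (lowest 0, median 2.68, highest 8.71) and 1.13 ± 0.530 in muscle (lowest 0.568, median 1.09, highest 1.76). Its log2 fold change of -0.55 ± 0.48 did not pass (SE, edgeR adjusted p = 0.270), and with total counts it was 1.51. Mir27b and Mir23b, neighbours on chromosome 17 inside Aopep, summed to 5.87 ± 3.87 nuclear CPM in mitochondria (range 1.89 to 12.7) and 2.00 ± 0.701 in muscle (SD, n = 6 each). Mir3074, in the same neighbourhood but on the other strand, is left out of this sum. It had 23 mitochondria counts and no muscle count, so it entered through mitochondria alone. Mir27b, reported in mice to lower Pax3 in muscle progenitors, did not pass at -0.73 ± 0.49 (SE, edgeR adjusted p = 0.153). Without mitochondria replicate 5, its highest mitochondria library, it was -1.37 (edgeR adjusted p = 0.0247), and with total counts it was 1.32.

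Mir6326 had 1.59 ± 1.91 nuclear CPM in mitochondria (lowest 0, median 1.17, highest 4.61) and 1.09 ± 0.240 in muscle (lowest 0.706, median 1.14, highest 1.32). The groups overlapped. It was called lower with TMM, at -1.59 ± 0.52 (SE, edgeR adjusted p = 0.00496), at the threshold with DESeq2 (adjusted p = 0.0502), and above 0 with total or nuclear counts (0.45 and 0.54). Mir26a-2 and Mir101a did not pass the filter. Mir26a-2 had 3.24 ± 3.30 nuclear CPM in mitochondria and 0.839 ± 0.156 in muscle, and Mir101a had 2.36 ± 1.76 in mitochondria and 0.863 ± 0.404 in muscle (SD, n = 6 each). The 3 miR-26 rows pooled to a ratio of 7.88 and the 2 miR-101 rows, whose microRNA is known in human cells to repress the histone methyltransferase EZH2, to 7.04.

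At the other end, 19 members had no muscle count and entered through 20 to 45 mitochondria counts, so that they had to stand higher in mitochondria. Of the 25739 genes with a sum of at least 20, 23.2% had no muscle count. Against a floor of 3 counts over the muscle group they were at least 155-fold to at least 349-fold higher in mitochondria. Mir129-2, of a microRNA known mainly from nervous tissue, had 8.91 ± 3.66 nuclear CPM in mitochondria (lowest 3.88, median 8.68, highest 12.9) and no count in the 6 muscle libraries, at least 349-fold higher. Mir3575 had 6.16 ± 2.51 nuclear CPM in mitochondria, Mir5126 had 6.40 ± 4.82, Mir152 had 5.01 ± 2.13 and Mir3596c had 4.78 ± 1.83, all against 0 in muscle and with all 6 mitochondria libraries above 0. They were at least 233-, 225-, 194- and 194-fold higher. These 5 had the largest fitted log2 fold changes of the members tested, a description, since the choice of such rows fixes their direction.

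Members with few muscle counts also entered mainly through their mitochondria counts, so their values are given without a test. Mir320a, which mouse cells make without Drosha, had 7.43 ± 3.01 nuclear CPM in mitochondria (lowest 3.48, median 6.98, highest 12.3) and 0.0731 ± 0.0685 in muscle (lowest 0, median 0.0692, highest 0.155), from 39 and 9 counts. Mir34a, a target of p53 that has been reported in mitochondria, had 6.02 ± 3.32 nuclear CPM in mitochondria (lowest 2.31, median 5.42, highest 10.5) and 0.124 ± 0.111 in muscle (lowest 0, median 0.0932, highest 0.310), from 28 and 15 counts. Both rows separated the groups. Mir320a, Mir34a and the other reported microRNAs named next were picked out after their values were seen. Of these, Mir130a had 2.45 ± 1.50 nuclear CPM in mitochondria against 0.0892 ± 0.0832 in muscle, and Mirlet7b had 2.89 ± 2.66 against 0.307 ± 0.178 (SD, n = 6 each). Of the other rows on that list, Mir1b, kept apart from the members, had 4.38 ± 2.81 nuclear CPM in mitochondria and 12.6 ± 6.74 in muscle (SD, n = 6 each), and Mir133a-2 is described above. The remaining rows stayed below the sum of 20: Mir499a had 11 counts in mitochondria and 0 in muscle, Mir155 had 6 and 0, Mir181c had 5 and 1, Mir494 had 4 and 0, Mir21 had 3 and 8, and Mir223 had none.

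Chromosome 6, where the large imprinted Dlk1-Dio3 cluster of microRNAs lies in the rat, holds 16 of the 93 members matched to RefSeq, the most of any chromosome. The share of all microRNA rows that lie on chromosome 6 was not counted, so this number is no result about the members. These 16 were taken over the whole chromosome, not the cluster alone. They summed to 50.1 ± 9.53 nuclear CPM in mitochondria (range 40.1 to 62.5) and 2.04 ± 0.539 in muscle (1.39 to 2.66, SD, n = 6 each), a pooled ratio of 25.2. Every member had a ratio above 1, from 7.40 upward, and 9 of 16 separated the groups with mitochondria above, where 79.7% of all genes with a sum of at least 20 did and the median ratio over all genes was 46.5. Within it, 5 rows (Mir3579, Mir323, Mir329, Mir543 and Mir300) and 4 rows (Mir431, Mir433, Mir127 and Mir136) form neighbourhoods with less than 10 kb between genes. In the first, the rows had 15 to 22 mitochondria counts and 0 to 14 muscle counts, and in the second 7 to 15 mitochondria counts and 7 to 25 muscle counts.

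The levels can also be read over all 420 microRNA rows, which the sum did not choose, in tiers set by the muscle counts. The 236 rows with no muscle count averaged 1.52 nuclear CPM each in mitochondria, and 76.3% of them had at least 1 mitochondria count. The 105 rows with 1 to 9 muscle counts averaged 1.98 in mitochondria and 0.0359 in muscle, the 52 rows with 10 to 39 averaged 2.53 and 0.167, and the 27 rows with 40 or more averaged 2.44 and 1.87. The muscle means differ by construction, and single rows varied widely within a tier, from 0 to 45 mitochondria counts in the first. Across the 420 rows the levels in the 2 kinds of library had a Spearman's rho of 0.285. Over the 352 rows matched to RefSeq, the mitochondria level had a rho of 0.234 with hairpin length and 0.178 with GC content. These are descriptions over rows of the same libraries.

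**Figure D3:**
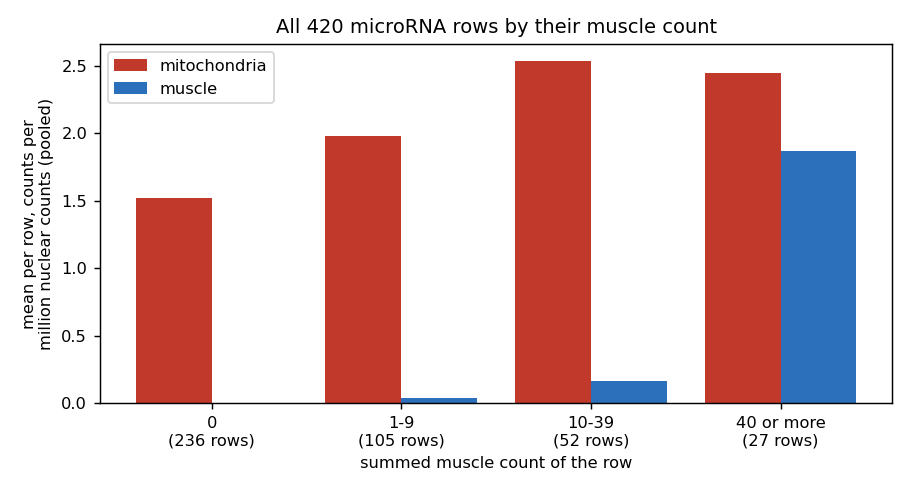
Mean level per row in mitochondria (red) and muscle (blue), in nuclear CPM pooled over 6 libraries, for all 420 microRNA rows grouped by their summed muscle count. The mitochondria bars lie between 1.52 and 2.53 in all 4 tiers, while the muscle bars run from 0 to 1.87; the tiers were set by the muscle counts.

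Many microRNA genes lie inside a longer gene and are cut from its transcript. RefSeq places 51 members inside a gene on the same strand, and 30 of them had such a host in the table, in 31 pairs. The member's ratio of mitochondria to muscle was above that of its host in 30 of the 31 pairs (the exception, Mir301b, has no muscle count and enters at its lower bound), and its 95% counting interval lay above the host's in 23 and below it in 0. The pair that stands farthest apart in muscle transcripts is Mir208b and Myh7. Myh7 had 164 ± 51.7 nuclear CPM in mitochondria and 14410 ± 5536 in muscle (SD, n = 6 each), a ratio of 0.0117, whereas Mir208b had a ratio of 2.65 (1.17 to 5.29). Mirlet7g, with a ratio of 6.30 (3.13 to 11.8), is placed in both Rpl29, a ribosomal protein gene with a ratio of 0.120, and Wdr82 with 0.852. Mir3064 lies in Ddx5, an RNA helicase of the Microprocessor. It had a ratio of 0.950 (0.112 to 3.62), on 2 mitochondria and 49 muscle counts, against 0.193 for Ddx5. Mir27b at 2.68 and Mir23b at 3.36 were nearer to Aopep at 1.96, and the intervals of both overlapped that of Aopep. Mir140, known from cartilage in mice, had 24 mitochondria counts and 1 muscle count, a ratio of 558 (91.1 to 22963), in Wwp2 with 7.81. Across the pairs, the ratios of member and host had a Spearman's rho of 0.677. Lengths, introns and counting rules differ between a hairpin and its host, and how reads in introns were assigned is not stated. Members also entered by a sum of at least 20, and those with few muscle counts mainly through mitochondria counts, which favours high ratios. No such rule chose the hosts, so the counts of pairs are descriptions. The median ratio over all genes with a ratio or bound was 46.5. The intervals cover counting error only, not the spread between animals.

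**Figure D4:**
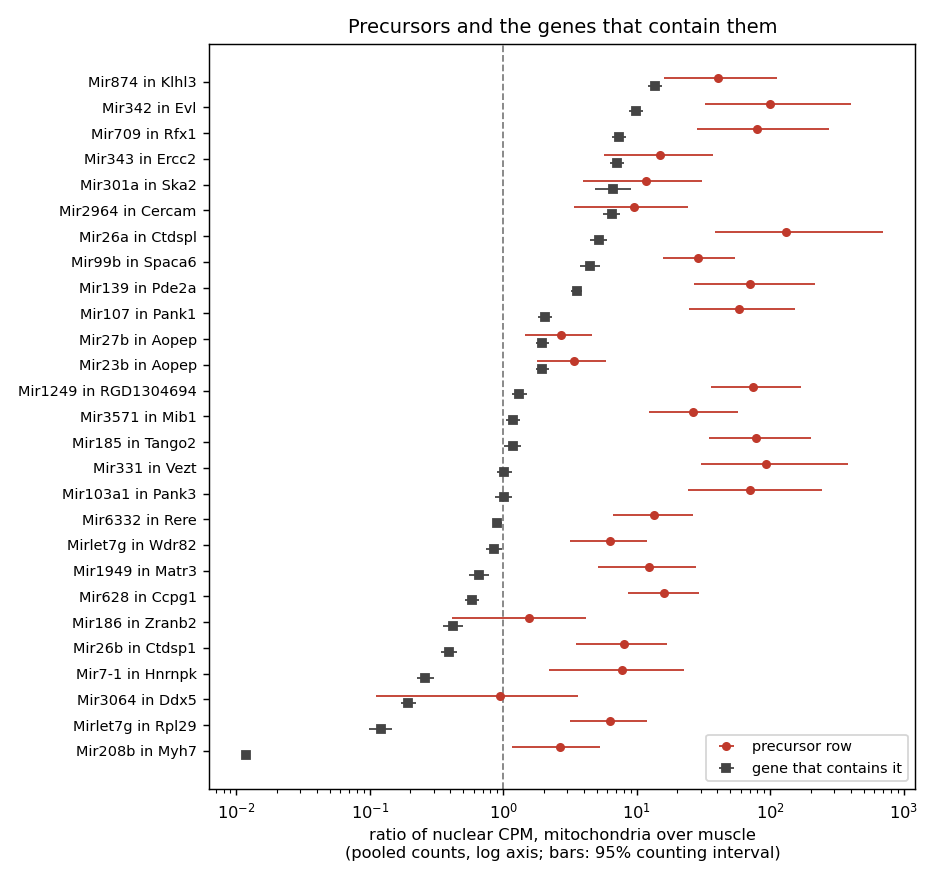
Ratio of nuclear CPM, mitochondria over muscle, of a precursor row (red circles) and of the gene that contains it on the same strand (grey squares) for the 27 pairs with at least 2 muscle counts on the precursor, on a log axis, with 95% counting intervals over pooled libraries. In every pair drawn the circle lies to the right of the square, from Mir208b (2.65) in Myh7 (0.0117) at the bottom to Mir874 (40.7) in Klhl3 (13.7) at the top. The precursors, unlike the genes that contain them, were chosen by their summed count, which favours high ratios in rows with few muscle counts.

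A part of the rows cannot be read on their own. RefSeq lists another microRNA gene that overlaps 14 of the 114 members, among them Mir3575 with Mir200c, Mir3596c with Mirlet7e, Mir3074 with Mir24-1 and Mir3591 with Mir122. Whether strand was used in counting is not stated, so reads of such partners cannot be told apart, and the partners are not analysed here under their own names. Of these 14, 9 are among the members without a muscle count. Copies with the same mature strand, such as Mirlet7c1 and Mirlet7c2 or Mir30c1 and Mir30c2, differ outside it, and counts near the shared strand are uncertain between them.

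The number of members seen was compared as deposited and at equal depth. As deposited, 90 to 103 members had a count in each mitochondria library (97.8 ± 5.34) and 68 to 83 in each muscle library (74.8 ± 6.97; SD, n = 6 each), although the muscle libraries were far deeper. Thinned to 573903 nuclear counts each, the mitochondria libraries showed 82 to 95 members (88.3 ± 4.50) and the muscle libraries 12 to 20 (16.3 ± 3.14). At that depth, 90.8% ± 0.226 of all nuclear genes had a count in mitochondria and 40.8% ± 0.415 in muscle. Those genes include rows with few or no counts, whereas the members were chosen by their summed count, so the sets are unlike. Of the 114 members, 58 had a count in all 6 mitochondria libraries and 36 in all 6 muscle libraries, against 96.8% and 58.4% of the genes with a sum of at least 20.

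**Figure D5:**
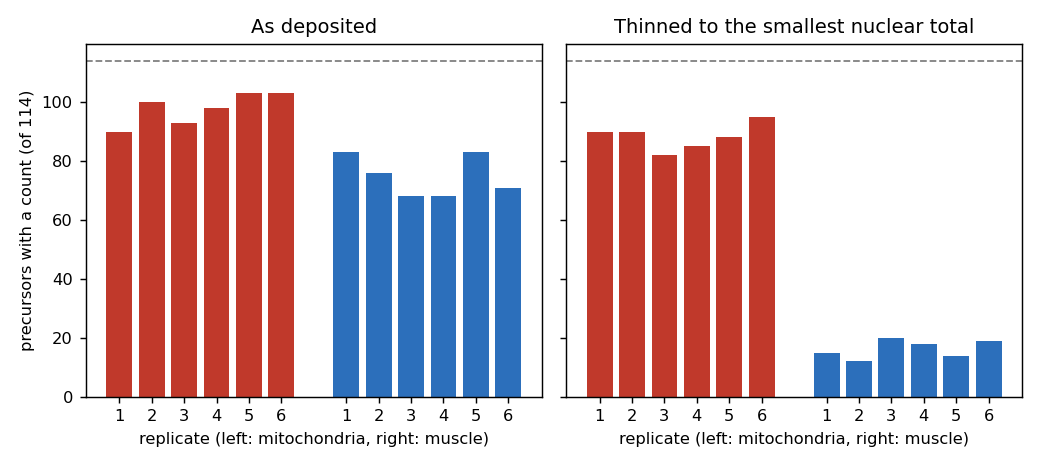
Number of the 114 precursor rows with at least 1 count in each library, as deposited (left) and after thinning every library to 573903 nuclear counts (right); red bars are the 6 mitochondria libraries and blue bars the 6 muscle libraries, and the dashed line marks all 114. The thinned mitochondria libraries show 82 to 95 rows and the thinned muscle libraries 12 to 20.

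The genes that make and use microRNAs were read from the same fit. Of 33 genes for processing, export, loading, silencing and precursor control, 6 were called higher in mitochondria, 20 lower and 7 did not pass with TMM (median log2 fold change -1.18; 63.0% higher and 30.3% lower over all genes), whereas with total counts 24 were higher and 3 lower (median 0.92; 84.3% and 9.03% over all genes), and with nuclear counts 25 and 3 (85.6% and 9.29%). The direction of the group thus turns with the scaling, and on either scale its median lies below that of all genes. In the Microprocessor and export group, 5 of 7 were lower and 1 higher with TMM. Ddx5 had 47.8 ± 8.81 nuclear CPM in mitochondria and 250 ± 27.6 in muscle, and its partner helicase Ddx17 had 62.4 ± 8.43 against 187 ± 22.4 (SD, n = 6 each). Both separated the groups with muscle above, at log2 fold changes of -4.53 and -3.73 (edgeR adjusted p = 1.06e-23 and 1.56e-22). Drosha, the nuclear nuclease, had 97.0 ± 17.5 nuclear CPM in mitochondria and 80.2 ± 8.39 in muscle, and was called lower with TMM, at -1.88, against a nuclear CPM ratio of 1.22.

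In the Dicer and loading group, Dicer1 and Ago2 were lower with TMM, Ago4 was higher and 4 did not pass. On the nuclear CPM scale all 7 had a ratio above 1, from 1.45 to 14.6. All lay below 46.5, the median over all genes with a ratio or bound. Dicer1 had 113 ± 16.3 nuclear CPM in mitochondria and 78.9 ± 8.67 in muscle, a ratio of 1.45, with a log2 fold change under TMM of -1.63 (edgeR adjusted p = 3.26e-14). Ago2, the Argonaute that cuts targets, had 89.9 ± 13.4 in mitochondria and 54.0 ± 4.80 in muscle, a ratio of 1.67, with -1.42 under TMM (edgeR adjusted p = 1.02e-12). Cnot1, the scaffold of the deadenylase complex, had 130 ± 14.7 nuclear CPM in mitochondria and 127 ± 9.60 in muscle, a ratio of 1.03, and was lower with TMM at -2.12. Lin28b, which blocks let-7 processing and is known from embryonic cells, had 26.4 ± 5.25 nuclear CPM in mitochondria and no muscle count, at least 1024-fold higher. Its relative Lin28a had 42.7 ± 8.91 in mitochondria and 0.0188 ± 0.0295 in muscle, on 2 muscle counts, a ratio of 2513 (95% counting interval 687 to 20882). Such values are not particular to these 2 genes. The 1115 olfactory receptor genes had a pooled ratio of 1242. Of the 25739 genes with a sum of at least 20, 23.2% had no muscle count. Pnpt1, a ribonuclease of the mitochondrial intermembrane space linked to RNA uptake, had 26.2 ± 3.50 in mitochondria and 27.8 ± 4.98 in muscle.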

How the data were processed

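The authors deposited a table of raw counts per gene with 1 column per library, made with FastQC 0.74, cutadapt 4.6, STAR 2.7.11a and HTSeq on mRatBN7.2, per the submitters' processing notes; strand use, reads with several matches and the annotation release are not stated. Each of the 12 columns matched a sample. Mitochondria libraries held 720111 to 1785865 counts and muscle libraries 24309444 to 32055355. Groups came from the titles.

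The members, lists and tests were chosen with earlier results of these data known. Members were found by name and by a summed count of at least 20. Levels are CPM with only nuclear genes in the total. The whole table was tested with edgeR 4.0.16 (glmQLFit, glmQLFTest) in R 4.3.3 with TMM scaling, filterByExpr (minimum count 10), no term but group, and a threshold of 0.05 after Benjamini-Hochberg adjustment; log2 fold changes are mitochondria over muscle, and standard errors are the absolute value divided by the square root of F. The fit was tested on simulated data in which most genes did not differ between the groups, unlike the genes of this table. That simulation therefore cannot decide between the scalings. Pooled ratios have exact conditional 95% intervals, and rows without a muscle count were given 3 counts over that group as a floor; intervals and floors cover counting error only. Named members follow a rule on summed counts, fold changes and shared seeds or neighbourhoods; others were added for their known role in muscle, their reported place in mitochondria, their host or their family. Sequences, hairpin lengths, hosts and chromosomes came from RefSeq (GRCr8), another build than that of the counts, so no coordinates are given.

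Same-numbered libraries come from the same animal. Over 24679 genes, the deviations of paired libraries from their group means correlated at -0.00747 to 0.0201. The animal as a block is an alternative, with RLE size factors, total and nuclear counts, no filter, DESeq2 1.42.0, sums of at least 10 or 40, thinning, and each library left out.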

Additional observations from a re-analysis of the deposited data

Results flagged for a closer look

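Of 39 groups of 6 values checked among the named members, 3 had a single library far from the other 5; chance alone marks about 1 group in 20. Mir5126 had 15.7 nuclear CPM in mitochondria replicate 1, where the next highest mitochondria library had 6.92. Mirlet7a1 had 2.63 nuclear CPM in muscle replicate 6, where the next highest had 1.31, and Mir103a1 had 0.172 in the same library, where the next highest had 0.0480.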

How the results depend on the processing

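Mir568 stayed lower in mitochondria, past the threshold, with each scaling, without the filter, with DESeq2, with the animal as a block and without each mitochondria library. Its muscle counts let it enter by the sum, so this is a description. With total and nuclear counts in place of TMM, the log2 fold changes of Mir133a-2 (0.028 and 0.10), Mir30c2 (0.68 and 0.73), Mir6326 (0.45 and 0.54), Mir29b2 (1.51 and 1.58), Mir30d (1.18 and 1.29) and Mir27b (1.32 and 1.41) turned above 0; these scalings raise the median gene from 2.51 to 4.61 and 4.67. With them, 1 member each was lower, the members' median was 5.73 and 5.87, and the microRNA pathway had 24 and 25 genes higher and 3 and 3 lower. Without the filter, 72 members of 114 were higher and 9 lower with a median of 2.27. DESeq2, which tested the 114 with its own scaling, gave 77 higher and a median of 2.73. A sum of at least 40 left 37 rows, of which 19 were tested, 8 higher and 4 lower, with a median of 0.79. A sum of at least 10 gave 231 rows, of which 46 were tested, 35 higher and 4 lower, with a median of 3.88. Over all genes tested, 63.0% were higher and 30.3% lower. Thinning gave 88.3 members with a count in mitochondria and 16.3 in muscle. With the animal as a replicate block, 30 members were higher and 4 lower, and 22 pathway genes lower; the pairing changed no other count of calls. Leaving out each library in turn, with or without the filter, gave 51 to 72 members higher, 6 to 10 lower and a median of 2.00 to 3.18, and 5 to 8 pathway genes higher and 20 to 23 lower. Leaving out any 1 mitochondria library let 74 to 82 members pass the filter, with 51 to 60 higher, 6 to 7 lower and a median of 2.91 to 3.18. The median over all genes tested in those fits was 2.60 to 2.74. Leaving out any muscle library left no member past the filter, so those fits were run without it, a choice made after seeing the data. Counts of 2 to 45 per member in mitochondria limit what can be told between single rows.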
